A study of Mus musculus with 8 samples.

Results

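Angpt1, the secreted activator of the endothelial receptor Tek, fell 4.56-fold in hearts that overexpress the lipid droplet protein perilipin 5. The means of the other 8 listed genes of the angiopoietin and VEGF (vascular endothelial growth factor) families lay within 0.22 of the control mean on the log2 scale. Further members of the families, such as Angpt4 at -0.41 and Vegfd at 0.41, were measured outside this list. The genes described are the 9 listed ligands and receptors Angpt1, Angpt2, Tek, Tie1, Vegfa, Vegfb, Pgf, Kdr and Flt1, taken as array rows annotated with that symbol alone. Rows are chosen by the highest mean over the 8 hearts where a gene has several, and each of these 9 had a single row. They are 9 of 19938 genes measured. The set was drawn up with the fall of Angpt1 already known, so that fall is a description and not independent evidence.

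Hearts came from 4 mice labelled MHC-Plin5 and 4 labelled control, which were fasted males of c57/bl background aged 12 weeks. The series title gives the overexpression as cardiomyocyte specific, and the labels do not spell out the promoter, the number of founder lines or the genotype of the controls beyond the word control. RNA from whole hearts was hybridised to Affymetrix whole-transcript arrays, and each level below is a log2 RMA value, the authors' background-corrected and normalized signal. In whole-heart RNA, fewer cells of a type and less RNA per cell cannot be told apart. Plin5 itself stood at 8.58 to 9.04 in the control hearts and at 12.17, 12.69, 12.63 and 12.08 in MHC-Plin5 1 to 4. Of the array medians, 6 ran from 5.99 to 6.04, and those of control 2 (6.24) and MHC-Plin5 4 (6.18) were higher. The 10 markers of ventricular cardiomyocytes read between 11.97 and 14.20 in all 8 hearts, so the defining genes of heart muscle were present.

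Angiopoietins and VEGFs are secreted proteins that act on receptor tyrosine kinases of the vessel lining. Angpt1 comes from cells around the endothelium, and in the heart also from cardiomyocytes. It activates Tek (also called Tie2) and keeps vessels stable and tight. Angpt2 is stored in and released by endothelial cells and mostly blocks that signal, and Tie1 is a partner of Tek with no well-established activating angiopoietin. Vegfa drives endothelial growth and permeability through Kdr. Flt1 binds Vegfa tightly but signals weakly and also exists as a soluble trap, and it is the receptor of Vegfb and Pgf.

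Angpt1 was the 1 gene of the 9 whose control and MHC-Plin5 values did not overlap. Its log2 values were 9.03, 9.12, 8.98 and 9.15 in control 1 to 4, against 7.78, 5.27, 6.62 and 7.86 in MHC-Plin5 1 to 4. The groups do not overlap, MHC-Plin5 2 is the lowest and MHC-Plin5 1 and 4 lie close together at the top of their group. The means were 9.07 ± 0.08 (SD, n = 4) in control and 6.88 ± 1.22 (SD, n = 4) in MHC-Plin5 hearts. The log2 difference, MHC-Plin5 minus control, was -2.19 (SE 0.46, 95% interval -3.19 to -1.19), which was the lowest but 5 of all 19938 genes. In the limma fit over all genes the Benjamini-Hochberg adjusted p was 0.028. A two-sided exact permutation test over the hearts gave p = 0.0286, the lowest value that groups of 4 allow. Every gene whose groups do not overlap has that permutation p, and over all genes 5% were lower and 6.24% higher without overlap. The call ended without any single control or without MHC-Plin5 3 (adjusted p up to 0.0836), with an intensity trend and robust variances (0.0975), with each array's median as a covariate (0.0553) and in a test per gene that lets the variances of the groups differ (0.356). Its direction held in all 20 alternatives. As the groups do not overlap, leaving out hearts could not reverse it, and several other settings leave the difference itself unchanged. Without MHC-Plin5 2 the Angpt1 difference was -1.65.

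The hearts of the MHC-Plin5 group differed from each other in Angpt1 far more than the control hearts did. Relative to the control mean, Angpt1 stood at -1.29, -3.80, -2.45 and -1.21 on the log2 scale in MHC-Plin5 1 to 4, while the control hearts lay between -0.09 and 0.08. Only 36 of the 19938 genes had a larger SD over the 4 MHC-Plin5 hearts, where the median SD of all genes was 0.17. The value in MHC-Plin5 2 was below that array's median over all rows, and no detection call was used here. Set beside the transgene product, MHC-Plin5 2 and 3 had the higher Plin5 values (12.69 and 12.63) and the lower Angpt1 values (5.27 and 6.62), and MHC-Plin5 1 and 4 the reverse (Plin5 12.17 and 12.08, Angpt1 7.78 and 7.86). With 4 hearts this order was not tested.

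**Figure D1:**
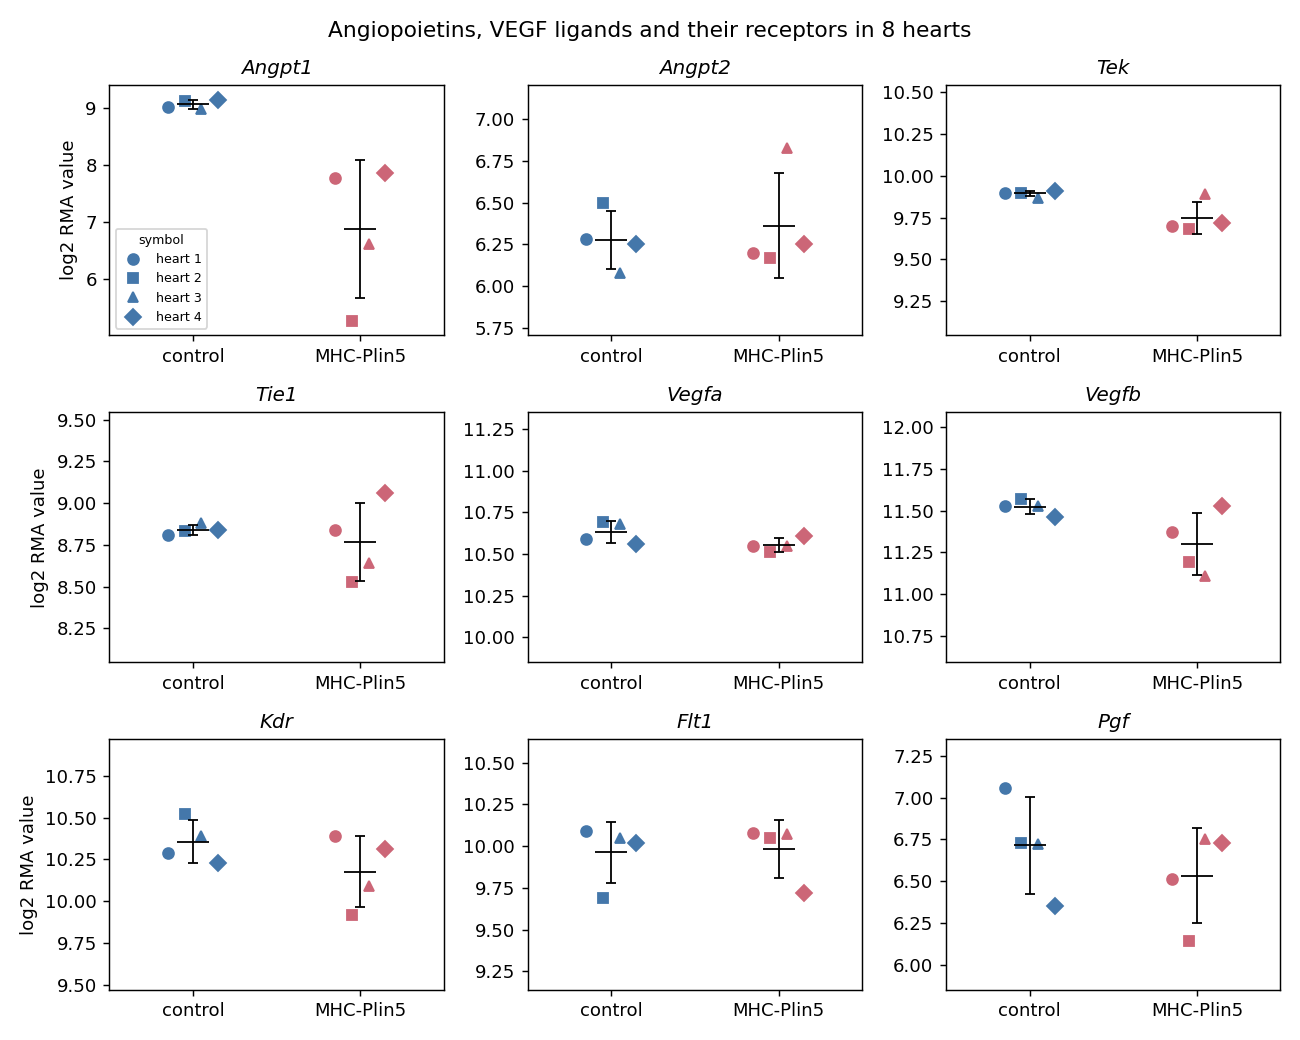
Log2 RMA value of each of the 9 genes (vertical axis) in the 4 control (blue) and 4 MHC-Plin5 (red) hearts, with 1 symbol shape per heart number and the group mean ± SD in black. The axis of Angpt1 spans a wider range than the others, which share a common span, and Angpt1 is the 1 gene whose groups do not overlap, at 8.98 to 9.15 against 5.27 to 7.86.

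Angpt2, the antagonist in most settings, was not called. Its log2 values were 6.28, 6.50, 6.08 and 6.25 in control 1 to 4, against 6.20, 6.17, 6.83 and 6.25 in MHC-Plin5 1 to 4, so the groups overlap and MHC-Plin5 3 stands above the rest. The difference was 0.08 (SE 0.15, 95% interval -0.26 to 0.42, limma adjusted p = 0.849), and without MHC-Plin5 3 it was -0.07. The interval allows a level between 0.837 and 1.34 times that of the controls. Within each heart, the log2 difference of Angpt2 and Angpt1, set to 0 at the control mean, was 1.21, 3.70, 3.00 and 1.19 in MHC-Plin5 1 to 4 and between -0.11 and 0.17 in the control hearts. Of the value in MHC-Plin5 3, 0.55 was the rise of Angpt2 over its control mean and the rest the lower Angpt1.

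The receptors of the angiopoietins were not called. Tek read 9.90, 9.90, 9.87 and 9.91 in control 1 to 4, against 9.70, 9.68, 9.89 and 9.72 in MHC-Plin5 1 to 4. Of the MHC-Plin5 hearts 3 lie below all controls and MHC-Plin5 3 lies within the control range. The Tek difference was -0.15 (SE 0.09, 95% interval -0.34 to 0.05, limma adjusted p = 0.453), a level between 0.788 and 1.03 times the control. Tie1 read 8.81, 8.83, 8.88 and 8.84 in control 1 to 4, against 8.84, 8.53, 8.64 and 9.06 in MHC-Plin5 1 to 4. The control values of Tie1 are tightly grouped and the MHC-Plin5 values spread to both sides of them. Its difference was -0.07 (SE 0.12, 95% interval -0.33 to 0.19, limma adjusted p = 0.827), and it was 0.01 without MHC-Plin5 2.

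Of the VEGF ligands 0 of 3 were called. Vegfa read 10.59, 10.69, 10.68 and 10.56 in control 1 to 4, against 10.55, 10.51, 10.55 and 10.61 in MHC-Plin5 1 to 4, with overlapping groups. The difference of -0.07 (SE 0.09, 95% interval -0.26 to 0.12, limma adjusted p = 0.745) allows 0.834 to 1.08 times the control level. Vegfb, a ligand of Flt1 that is abundant in heart muscle, read 11.53, 11.57, 11.53 and 11.46 in control 1 to 4, against 11.37, 11.19, 11.11 and 11.53 in MHC-Plin5 1 to 4. Hearts 1, 2 and 3 of the MHC-Plin5 group lie below every control, and MHC-Plin5 4 lies within the control range. Vegfb had the most negative difference after Angpt1, at -0.22 (SE 0.11, 95% interval -0.46 to 0.02), and was not called (limma unadjusted p = 0.066, adjusted p = 0.343). Over all genes, 25.7% had a difference of at least that size in either direction. Pgf (placental growth factor), also a ligand of Flt1, read 7.06, 6.73, 6.72 and 6.35 in control 1 to 4, against 6.51, 6.14, 6.75 and 6.73 in MHC-Plin5 1 to 4. Both groups spread widely and overlap, and the difference was -0.18 (SE 0.17, 95% interval -0.55 to 0.20, limma adjusted p = 0.671).

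Kdr, the main signalling receptor for Vegfa, read 10.29, 10.52, 10.39 and 10.23 in control 1 to 4, against 10.39, 9.92, 10.09 and 10.31 in MHC-Plin5 1 to 4. Only MHC-Plin5 2 and 3 lie below all controls. The Kdr difference was -0.19 (SE 0.12, 95% interval -0.45 to 0.08, limma adjusted p = 0.501), or 0.73 to 1.06 times the control level. Flt1 read 10.09, 9.69, 10.05 and 10.02 in control 1 to 4, against 10.08, 10.05, 10.07 and 9.72 in MHC-Plin5 1 to 4. The low value of each group is the heart whose array median is high, control 2 and MHC-Plin5 4. The part of the array in these values was not tested. The Flt1 difference was 0.02 (SE 0.12, 95% interval -0.26 to 0.29, limma adjusted p = 0.968), and it was 0.01 without those 2 hearts, -0.02 after a further quantile normalization and -0.06 when the array medians entered as a covariate. Within each heart, Vegfa minus Flt1, set to 0 at the control mean, was -0.19, -0.21, -0.19 and 0.23 in MHC-Plin5 1 to 4 and ran from -0.17 to 0.33 in the controls.

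In all, 1 of the 9 genes was called lower and 0 higher at an adjusted p under 0.05. Over all genes tested 1.17% were called lower and 2.08% higher. The same single gene had groups that do not overlap, where 5% of all genes were lower and 6.24% higher without overlap. By unadjusted p, 1 of the 9 was under 0.05. Of the 9 differences 7 were under 0 and 2 over 0, and their median was -0.15 beside -0.03 for all genes. The median of all genes was thus itself under 0. The matching shares over all genes, by unadjusted p and by sign, were not counted. Neither count is therefore read as a trend of the 9 genes. Subtracting each array's median moved Tek to -0.11, Kdr to -0.14 and Vegfb to -0.18. Angpt1 was then -2.15.

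**Figure D2:**
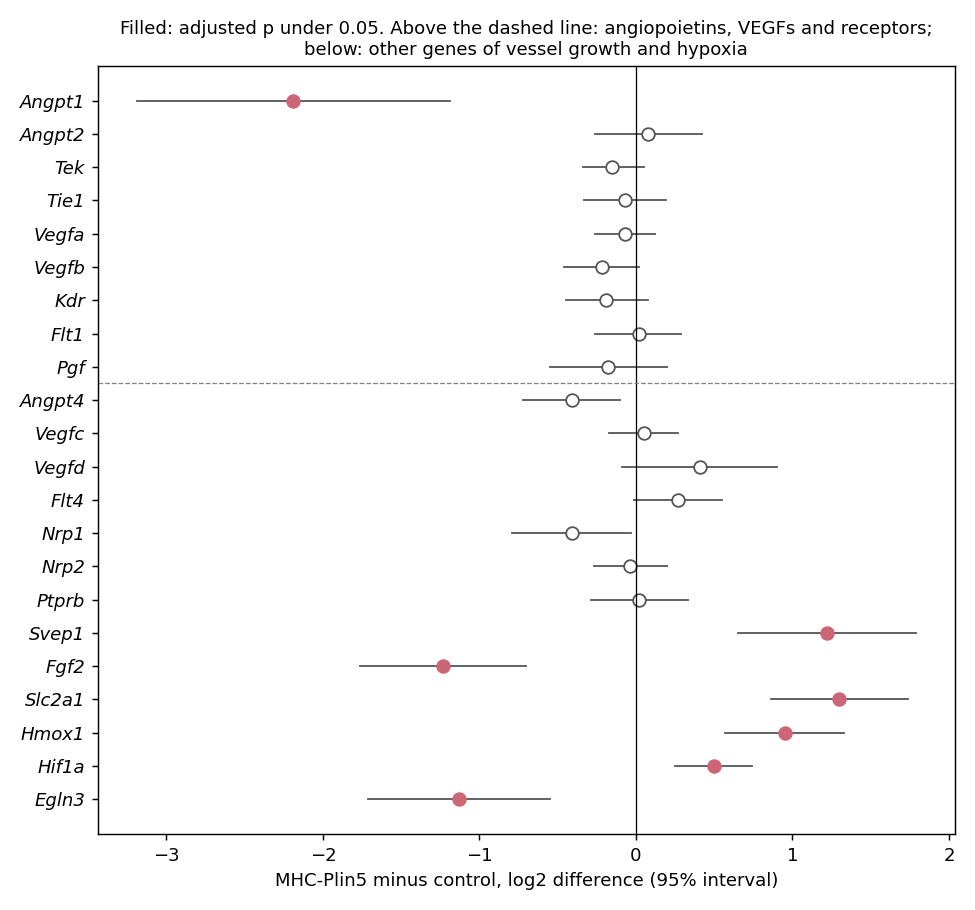
Log2 difference, MHC-Plin5 minus control (horizontal axis), with its 95% interval from the limma fit for the 9 genes and for 13 other genes of vessel growth and hypoxia, where filled points passed an adjusted p of 0.05. Among the 9 genes only Angpt1 is filled, at -2.19, and the other 8 points lie between -0.22 and 0.08.

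Across 87 other genes of vessel growth and hypoxia, in 5 lists, 4 were called higher and 2 lower (4.6% and 2.3%). Over all genes the shares were 2.08% and 1.17%. At those shares, short lists such as these and the cell type lists below hold few called genes or none. Other ligands, co-receptors and regulators of the same receptors were described from a list of 16 measured genes, of which 1 was called higher and 0 lower, with a median difference of 0.12. The called gene was Svep1, a large matrix protein needed for lymphatic vessel development. It read 7.71, 8.27, 7.97 and 8.13 in control 1 to 4, against 8.71, 9.47, 10.01 and 8.76 in MHC-Plin5 1 to 4, with no overlap. The Svep1 difference was 1.22 (SE 0.26, limma adjusted p = 0.0301). The call ended without any single control or MHC-Plin5 2 (adjusted p up to 0.101), and when the array medians entered as a covariate (0.0583). The remaining members of the 2 families were picked for their role after their values were seen, and 0 of these 7 were called. Angpt4, a further angiopoietin, had -0.41 (adjusted p = 0.158), the lymphatic growth factors Vegfc and Vegfd had 0.05 and 0.41, and their receptor Flt4 had 0.27. The VEGF co-receptors Nrp1 and Nrp2 had -0.41 (adjusted p = 0.262) and -0.04, and Ptprb, the endothelial phosphatase that switches Tek off, had 0.02. Among 4 angiopoietin-like genes 0 were called. Angptl6 had 0.52 (adjusted p = 0.0689) and Angptl1 -0.83 (adjusted p = 0.0914), and Angptl6 passed the threshold after median centring (adjusted p = 0.015).

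Downstream of the receptors, 0 of 30 genes of receptor signalling and endothelial response were called, with a median of -0.03. The smallest p values belonged to Grb14, an adaptor that binds receptor tyrosine kinases, with -0.64 (adjusted p = 0.0806), and to the Notch ligand Dll4, which VEGF induces in sprouting endothelium, with -0.32 (adjusted p = 0.107). Among 21 genes of the hypoxia response, which controls Vegfa in many tissues, 3 were called higher and 1 lower, and the median was 0.01. Slc2a1, the glucose transporter GLUT1, had 1.30 (SE 0.20, adjusted p = 0.00608) and kept its call with any single heart left out. Hmox1, a heme-degrading enzyme, had 0.95 (SE 0.17, adjusted p = 0.0161), and Hif1a, the oxygen-regulated transcription factor, had 0.50 (SE 0.11, adjusted p = 0.0344). Hif1a read 10.43 to 10.56 in the controls and 10.85 to 11.29 in the MHC-Plin5 hearts. Egln3, a prolyl hydroxylase that marks HIF proteins for breakdown and is itself a HIF target, had -1.13 (SE 0.26, adjusted p = 0.0433). The members called thus went in both directions. The call of Hmox1 ended without control 1, control 2 or MHC-Plin5 2, that of Hif1a without any control, MHC-Plin5 2 or MHC-Plin5 3, and that of Egln3 with each heart left out except MHC-Plin5 1. Without the 2 arrays of highest median, Hmox1 and Egln3 were no longer called (adjusted p = 0.0563 and 0.158). The Egln3 call also ended after median centring (0.0537), with a trend and robust variances (0.0783) and with the array medians as a covariate (0.0795). With the heart number as a replicate block, Hif1a and Egln3 had adjusted p values of 0.0658 and 0.0513.

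Of 16 genes of other vessel growth factor families, 1 was called lower and 0 higher, with a median of 0.06. It was Fgf2, the basic fibroblast growth factor that acts on endothelium and smooth muscle. Fgf2 read 8.86, 8.82, 8.83 and 8.23 in control 1 to 4, against 7.17, 7.47, 8.20 and 6.97 in MHC-Plin5 1 to 4, so the highest MHC-Plin5 heart lies just under the lowest control. Its difference was -1.23 (SE 0.24, limma adjusted p = 0.0221). Leaving out MHC-Plin5 2 or any control other than control 4 ended the call (adjusted p up to 0.0813), as did leaving out the 2 arrays of highest median (0.0841). Fgf2 was lowest in MHC-Plin5 4, whereas Angpt1 was lowest in MHC-Plin5 2.

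Markers of the cells that make or receive these signals were read in the same hearts. Of 15 endothelial markers 0 were called, with differences between -0.32 and 0.17 and a median of -0.03. Their mean log2 level per heart ran from 8.90 to 9.09 in control and from 8.85 to 9.12 in MHC-Plin5 hearts. Erg and Cdh5, an endothelial transcription factor and the junction protein VE-cadherin, had -0.32 and -0.15 (adjusted p = 0.211 and 0.449). With every array centred on these 15 markers, a setting added after the data were seen, Angpt1 had -2.15 (adjusted p = 0.00685), Tek -0.10, Tie1 -0.03, Kdr -0.14 and Flt1 0.06. The list mean was 9.01 in control and 8.96 in MHC-Plin5 hearts, so this centring could move a group difference only slightly. It also changed the fit over all genes, with 577 called higher and 197 lower, against 415 and 233. The smaller adjusted p is therefore not read as a stronger fall of Angpt1.

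Pericytes and mast cells are also known sources of Angpt1. Of 12 markers of pericytes and smooth muscle 1 was called lower and 0 higher, 6 differences were under 0 and 6 over 0 with a median of -0.04, and the mean level ran from 9.0 to 9.18 in control and from 8.78 to 9.35 in MHC-Plin5 hearts. The called marker was Kcnj8, a potassium channel subunit of mural cells, with -0.43 (SE 0.10, adjusted p = 0.0377). Its call ended without any control, MHC-Plin5 2 or MHC-Plin5 3. It also ended after median centring (adjusted p = 0.0867), with the heart number as a replicate block (0.0887), with centring on the endothelial markers (0.156) and without the 2 arrays of highest median (0.0694). Vtn, made by pericytes among other cells, had -0.75 (adjusted p = 0.0666). The other markers under 0 were Abcc9 (-0.45), Myh11 (-0.38), Rgs5 (-0.36) and Notch3 (-0.08). Which cells of the whole heart the transcripts of this list came from was not tested. The largest positive differences in the list were those of the smooth muscle genes Cnn1 (0.62) and Acta2 (0.34) and of the pericyte proteoglycan Cspg4 (0.34). All of these were named after their values were seen, and none was called. Cnn1 read 7.54, 7.60, 11.26 and 6.87 in MHC-Plin5 1 to 4, so only MHC-Plin5 3 lay above the control mean of 7.70. That heart was also the highest for Acta2 (12.75, controls 11.01 to 11.63) and had the list mean of 9.35. Of 7 mast cell markers 1 was called lower and 0 higher, with 4 differences under 0, 3 over 0 and a median of -0.26, and the mean level ran from 5.18 to 5.44 in control and from 4.90 to 5.32 in MHC-Plin5 hearts. That marker was Cpa3, a mast cell carboxypeptidase, with 6.57, 6.44, 6.39 and 6.58 in control 1 to 4, against 5.59, 4.99, 5.35 and 5.67 in MHC-Plin5 1 to 4 (difference -1.10, SE 0.14, adjusted p = 0.00241). Cma1 had -0.29 (adjusted p = 0.335). The defining mast cell genes Ms4a2 and Fcer1a, with Cma1, had a mean under 5 over all hearts. The differences of the 3 markers over 0, named after their values were seen, were 0.03 for the receptor Kit, 0.01 for Ms4a2 and 0.02 for Fcer1a. Kcnj8 and Cpa3 were called lower, as Angpt1 was, and their part in its fall was not tested.

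For the other cell types 0 markers were called. The median difference was 0.30 for 9 fibroblast markers (Pdgfra 0.38, Lum 0.40), 0.28 for 9 macrophage markers (Itgam 0.42, C1qa 0.40) and -0.11 for the 10 ventricular markers (Mybpc3 0.23, Myl3 -0.30). Of these, 8 of 9 fibroblast and 9 of 9 macrophage markers were over 0, and 8 of 10 ventricular markers were under 0. The share of all genes on either side of 0 was not counted. The mean level of each of these lists per heart overlapped between the groups. For the remaining lists the medians were nearer to that of all genes, except for the atrial one. The median was -0.01 for 5 lymphatic markers (Prox1 -0.29, Pdpn 0.30), -0.08 for 5 platelet markers (Ppbp -0.41, Treml1 -0.08) and -0.05 for 2 red cell markers (Alas2 -0.21, Slc4a1 0.11). The 7 atrial markers (Nppa 1.08, Tbx5 -0.31) had a median of 0.79, with 6 of the 7 over 0 and Tbx5 the 1 below, and they spread most between hearts. Their mean ran from 7.42 to 10.93 in control and from 8.06 to 11.07 in MHC-Plin5 hearts, with 8.06 in MHC-Plin5 2 and 11.07 in MHC-Plin5 3, the pair with the lowest Angpt1. Nppa did not follow that mean in MHC-Plin5 2, where it read 13.90. Myl7 and Bmp10, named after their values were seen, read 5.98 and 5.92 in that heart. The rise of Nppa is thus not read as a measure of atrial tissue.

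**Figure D3:**
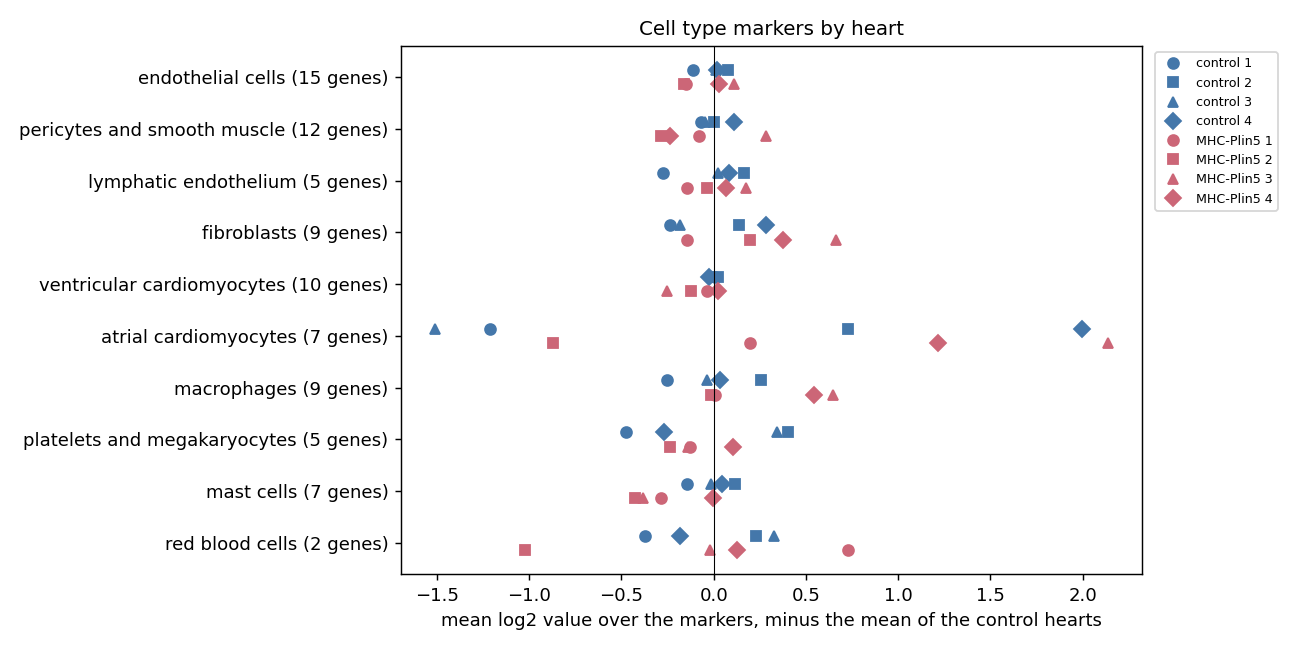
Mean log2 value over each list of cell type markers, minus the mean of the control hearts (horizontal axis), with 1 point per heart (control blue, MHC-Plin5 red). Endothelial markers stay close to 0 in all 8 hearts, mast cell markers lie at or below 0 in the MHC-Plin5 hearts and atrial markers spread widely in both groups.

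The genes whose profile over the 8 hearts was closest to that of Angpt1 were found by the root mean square difference between log2 values, each gene first centred on its control mean. The 9 listed genes were left out of this choice, as were symbols with Rik or starting with LOC or with Gm and digits. The closest were Pla2g5, a secreted phospholipase (0.31), Ces1d, a carboxylesterase (0.38), Kcnj3, a subunit of the acetylcholine-gated potassium channel (0.38), Maob, a monoamine oxidase (0.43), and Wnk2, a protein kinase (0.51). The measure picks genes with a fall of similar size and the same order of hearts, so neither is a finding, and 0 of the 5 is in the vessel growth lists. Pla2g5 read 10.53 to 11.02 in the controls and 8.94, 6.59, 7.82 and 9.69 in MHC-Plin5 1 to 4. Kcnj3 read 10.09 to 10.69 in the controls and 9.68, 6.27, 8.29 and 9.74 in MHC-Plin5 1 to 4. By that choice, MHC-Plin5 2 is the lowest heart for each of the 5 genes, followed by MHC-Plin5 3. Their differences were -2.50, -2.50, -1.83, -1.78 and -1.59 in the order named, of which Kcnj3 and Wnk2 were not called (adjusted p = 0.148 and 0.0504). The call of Pla2g5 ended without any control or MHC-Plin5 3. With an intensity trend and robust variances it also ended (adjusted p = 0.1), as did that of Ces1d (0.0504), and with group variances allowed to differ all 3 calls ended (Pla2g5 0.345, Ces1d 0.297, Maob 0.297).

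The nearest measured neighbours of Angpt1 on its chromosome, in the order of the RefSeq annotation of GRCm38.p6, were looked at after the values were seen. They are Oxr1 and Abra on one side and Rspo2 and Eif3e on the other, and 0 of these 4 were called. Abra, an actin-binding protein of striated muscle, read 9.81, 9.56, 9.46 and 9.54 in control 1 to 4, against 9.97, 11.75, 10.87 and 9.96 in MHC-Plin5 1 to 4. It was highest in MHC-Plin5 2 and 3, the hearts in which Angpt1 was lowest. Its difference was 1.04 (SE 0.33, adjusted p = 0.125), and the groups do not overlap. Oxr1, Rspo2 and Eif3e had -0.17, 0.12 and 0.26.

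**Figure D4:**
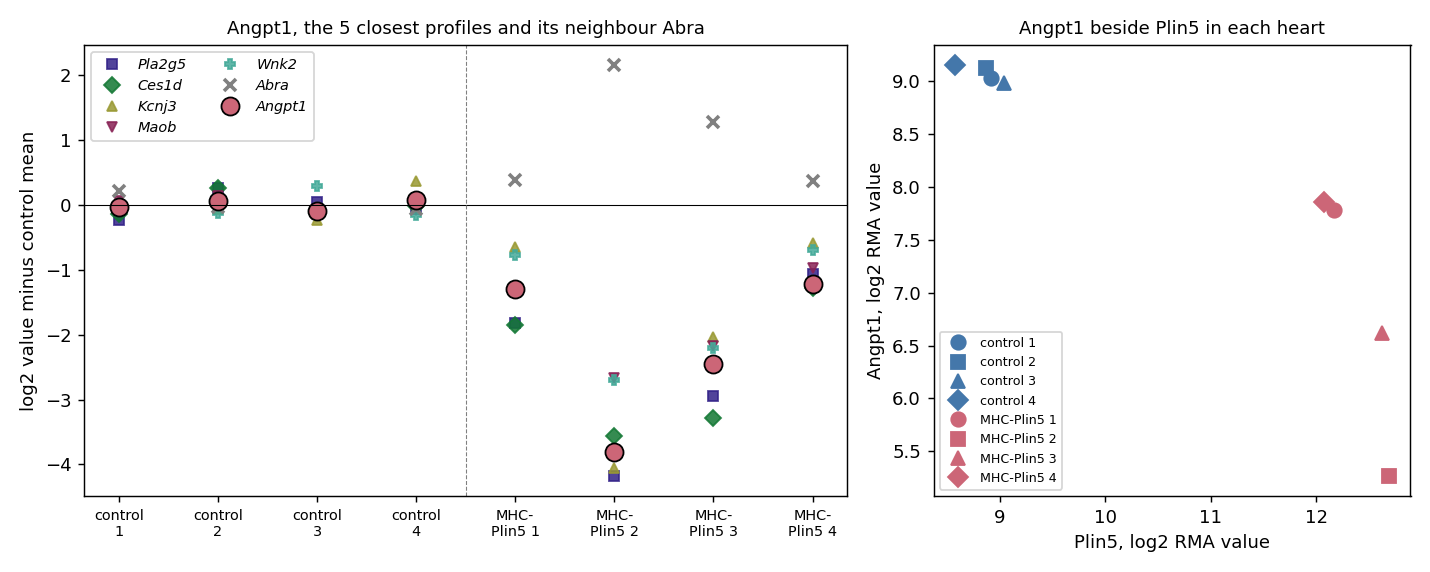
Left, log2 value minus the control mean (vertical axis) in each heart for Angpt1, the 5 genes with the closest profile among those considered and the neighbouring gene Abra. Right, the log2 RMA value of Angpt1 against that of Plin5 in each heart. Angpt1 and the 5 genes are lowest in MHC-Plin5 2, where Angpt1 is at -3.80, and Abra is highest there.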

How the data were processed

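Per the submitters' processing notes, RMA in Affymetrix Expression Console gave the deposited log2 values. Its version and settings are not stated in those notes. Of 35556 rows, 21789 had exactly 1 gene symbol in GEO's platform annotation, and the brightest row per gene left 19938 genes. Scanner files and scan dates were not used here, so no batch was tested, and 4 arrays per group limit the precision.

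The fit used limma 3.58.1 (lmFit, eBayes) under R 4.3.3 and compared the 2 genotypes with no other term. Tests were two-sided, p was Benjamini-Hochberg adjusted over all genes, and calls needed an adjusted p under 0.05. Intervals are 95% intervals of that fit. Exact permutation tests use all 70 splits of the 8 hearts. On simulated data with 19938 genes, log2 changes of 0.5, 1 and 2 were found in 52.2%, 86.6% and 97% of the genes given them. That noise was normal with equal SD in both groups, unlike Angpt1.

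The members, the 5 pathway and 10 cell type lists and the alternatives were chosen with earlier results of these data known. Older symbols were matched through RefSeq gene IDs. Named are all members and Plin5, up to 4 called genes (or the 2 with the smallest p) per pathway list, 2 per cell type list and the 5 closest to Angpt1. The choice of those 5 left out the members and symbols with Rik or starting with LOC or with Gm and digits. Further genes named for role or position were chosen after their values were seen. Alternatives were filters at a mean of 5 or 7, quantile normalization, median centring, array weights, a trend with robust variances, the heart number as a block, averaging a gene's rows, the array median as a covariate, Welch's test and each heart left out. Same-numbered hearts had correlations of their deviations from the group means between -0.107 and 0.187, so the number was not taken to pair them. Tables and plots were made with pandas 2.3.3 and matplotlib 3.10.9 in Python 3.11.15.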

Additional observations from a re-analysis of the deposited data

Results flagged for a closer look

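In 49 genes, each with 2 groups of 4 hearts, a heart stood apart from the other 3 of its group in 9 of 98 groups. Its gap to its nearest neighbour, as a share of the range of the group, was above the 95% critical value of Dixon's test. The measure is relative, so small gaps are flagged in tight groups, as for Tek in control 3 and Mybpc3 in control 1. Chance flags about 1 in 20 groups. Among the 9 listed genes of the angiopoietin and VEGF families these were Angpt2 at 6.83 in MHC-Plin5 3 (others 6.17 to 6.25), Tek at 9.89 in MHC-Plin5 3 (others 9.68 to 9.72), Flt1 at 9.72 in MHC-Plin5 4 (others 10.05 to 10.08) and Tek at 9.87 in control 3 (others 9.90 to 9.91). Elsewhere they were Angptl6 at 7.80 in MHC-Plin5 4 (others 7.25 to 7.35), Hif1a at 10.43 in control 1 (others 10.55 to 10.56) and Fgf2 at 8.23 in control 4 (others 8.82 to 8.86). The last were Mybpc3 at 12.67 in control 1 (others 12.61 to 12.62) and Oxr1 at 8.12 in control 2 (others 7.79 to 7.84).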

How the results depend on the processing

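Angpt1 kept its direction in all 20 alternatives and its call in 12, with adjusted p values from 0.00664 to 0.356. The direction was bound to hold where hearts were left out, as the groups do not overlap, and where a setting leaves the difference unchanged. None of the other 8 genes was called in any of the 20, and their smallest adjusted p was 0.11. Without an MHC-Plin5 or control heart, the Angpt1 difference ran from -2.52 to -1.65, and 0 to 1 of the 9 genes was lower and 0 higher. Its call ended in 3 further alternatives, at -2.19 with an intensity trend and robust variances, -2.07 with the array median as covariate and -2.19 in Welch's test, where 0 of the 9 genes were called lower. The cause was not tested.

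The 5 pathway lists together had 4 genes higher and 2 lower, and with a heart left out 1 to 7 and 0 to 5. Per list, those ranges were 0 to 2 higher and 0 to 1 lower for other ligands and regulators, 0 higher and 0 to 1 lower for angiopoietin-like genes, 0 to 1 in each direction for receptor signalling, 1 to 4 higher and 0 to 2 lower for hypoxia, and 0 to 1 in each direction for other growth factor families. The lower count over the lists was 1 after median centring, with the trend and robust variances, with the array median as covariate, with the replicate block and without the 2 arrays of highest median, and in each of these 5 settings 0 hypoxia genes were lower. Angiopoietin-like genes had 1 higher with the filter at 7, quantile normalization, median centring, array weights, the array median as covariate, endothelial centring and without those 2 arrays. Quantile normalization also gave 1 receptor signalling gene lower and 1 gene of other families higher. Other ligands had 0 higher with the array median as covariate. Leaving out those 2 arrays also gave 1 receptor signalling gene lower and 0 of other families lower. Centring on endothelial markers gave 7 genes higher over the lists, with 1 each in receptor signalling and other families. That centring and the removal of those 2 arrays were chosen after seeing the data.

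Array weights gave 10 higher and 8 lower over the lists, with 2 other ligands higher, 1 angiopoietin-like gene lower, 1 receptor signalling gene higher and 4 lower, 2 hypoxia genes lower and 2 of other families higher. Over all genes they called 884 higher and 741 lower, against 415 and 233. Welch's test called 23 higher and 5 lower over all genes and 0 in either direction over the lists (other ligands and hypoxia 0 higher, hypoxia and other families 0 lower), and it also ended the calls of Kcnj8, Cpa3, Pla2g5, Ces1d and Maob. With a heart left out, all genes had 170 to 614 higher and 56 to 560 lower, lowest without control 3 and MHC-Plin5 2 and highest without MHC-Plin5 4.

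With the heart number as a replicate block, Angpt1 had -2.19 (limma adjusted p = 0.022). The numbers are not known to pair the hearts. Angpt2 and Pgf were left out by the filter at 7, and 3 of 7 mast cell markers had a mean under 5, where no detection call was available here to set signal against background.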
